A study of Salmo trutta with 24 samples.

Results

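The genes described here encode enzymes that conjugate drugs, steroids and other small molecules in the liver, and enzymes that make, use and regenerate glutathione. Members were every annotation in the deposited tables that names glutathione, a UDP glucuronosyltransferase, UDP-glucose dehydrogenase, a cytosolic sulfotransferase family or glutamate-cysteine ligase, and the counts of all assembled transcripts (contigs) with the same Ensembl identifier were summed. This gave 42 of 11587 annotated identifiers, made of 111 contigs. They were 11 glutathione S-transferases (GSTs), 5 glutathione peroxidases, 4 enzymes of glutathione synthesis and reduction, 2 hydrolases of glutathione thioesters, UDP-glucose dehydrogenase, 12 UDP glucuronosyltransferases (UGTs) and 7 sulfotransferases (SULTs). All 42 were named from zebrafish proteins, so a member is the set of brown trout contigs closest to a zebrafish gene, and its roles are those known from other species.

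RNA was sequenced from the livers of sexually mature adult male brown trout (*Salmo trutta*), fish by fish. There were 3 fish per exposed group. Linuron was given at 1.7 µg/l, at 15.3 µg/l or at 225.9 µg/l, and E2 at 1.9 ng/l, at 18.1 ng/l or at 34.4 ng/l, and 6 fish were controls. Linuron is a urea herbicide and E2 is 17β-estradiol, the main natural estrogen. The fish were 2 years old. The exposure lasted 4 days according to the sample labels and the study's methods, and 14 days according to another field of the labels. In the E2 experiment each concentration was 1 tank, so that the tank and the concentration cannot be told apart, and the controls came from a pair of tanks that the labels do not distinguish. The tanks of the linuron fish are not given in the sources used here.

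Conjugation makes small molecules more soluble in water and readies them for export into bile or urine. UGTs attach glucuronic acid taken from UDP-glucuronate, the product of UDP-glucose dehydrogenase, and SULTs attach sulfate. Both families act on steroid hormones, bile acids and drugs. GSTs attach glutathione, a tripeptide whose rate-limiting synthesis step is carried out by glutamate-cysteine ligase and whose last step is carried out by glutathione synthetase. Glutathione peroxidases spend glutathione to reduce peroxides, and glutathione reductase returns the oxidised form to the reduced one. In vertebrate liver, many of these genes are known targets of the transcription factors Nrf2, which responds to electrophiles and oxidants, and the aryl hydrocarbon receptor, whose best known target is cyp1a.

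The libraries held 3894392 to 10736246 counts per fish, and the members took 0.254 to 0.629% of them. The members' share was 0.484 to 0.629% at 225.9 µg linuron/l, 0.363 to 0.416% at 34.4 ng E2/l and 0.316 to 0.458% in control fish. Levels are given as CPM, counts scaled to a common library size over all 24 fish with TMM factors, which correct for differences in library composition, while log2 fold changes, standard errors (SE) and adjusted p-values come from edgeR's quasi-likelihood test of each exposed group against the 6 controls with Benjamini-Hochberg adjustment over all features of the table. A feature is an Ensembl identifier or an unannotated contig, and a member rose or fell where its adjusted p was under 0.05. Contig lengths were not used here, so levels can be compared between fish but not between genes. All 6 comparisons share the same 6 controls. In liver tissue, fewer cells of a type and less RNA per cell cannot be told apart. The known E2 targets, such as the vitellogenins, esr1 and nots, rose at 34.4 ng E2/l in 7 of 7 identifiers. Contigs were deposited only where they had about 1 CPM in 3 fish, and only 3 of these identifiers are listed in all tables. The others passed that filter only with the exposed fish, so their rise is partly fixed by the listing. For the 3 identifiers that are listed in all tables, fish 1 at 1.9 ng E2/l stood apart with a summed 703 CPM. The other fish of its group had 67.6 and 38.3 CPM, and control fish had 31.8 to 151 CPM. Fish 2 at 15.3 µg linuron/l stood apart among the members, with the lowest level of the 24 fish for 13 of the 41 members listed in all tables and the highest for 2.

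At 225.9 µg linuron/l glutathione reductase, the catalytic subunit of glutamate-cysteine ligase, 1 GST and 1 peroxidase were higher than in control fish. Of 41 members tested, 4 rose and none fell. Among all features, 0.15% rose and 0.0426% fell. At an unadjusted p under 0.05 there were 16 members, of which 12 were higher and 4 lower, which is 39.0% of the members, beside 8.53% of all features and 1206 of 10954 annotated identifiers. All 3 exposed fish lay above all 6 controls for 11 members and below them for 3, beside 2.91% and 2.06% of all features. The synthesis and reduction enzymes summed to 208, 273 and 124 CPM in the exposed fish and to 55.5 to 74.8 CPM in control fish.

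Glutathione reductase (ENSDARG00000019236), which regenerates glutathione with NADPH, had 101, 154 and 52.1 CPM in fish exposed to 225.9 µg linuron/l, against 17.6, 24.1 and 34.6 CPM as the lowest, median and highest of the control fish. All exposed fish were above all controls. The log2 fold change was 1.98 (SE 0.30, adjusted p = 0.014), or 3.95-fold. The catalytic subunit of glutamate-cysteine ligase (ENSDARG00000013095), the rate-limiting enzyme of glutathione synthesis, had 80.6, 87.3 and 53.2 CPM in exposed fish, against 19.6, 25.01 and 31.9 CPM in control fish. The groups did not overlap, and the log2 fold change was 1.49 (SE 0.24, adjusted p = 0.019), or 2.81-fold. The modifier subunit of the same enzyme, which raises its activity, had 19.4, 18.4 and 10.9 CPM in exposed fish and 5.39 to 10.3 CPM in control fish. It lay above all controls, but its log2 fold change of 1.16 (SE 0.28) had an adjusted p of 0.158. Glutathione synthetase, the second step of the pathway, also had a positive log2 fold change, so that all 4 members of this family were positive, with a median of 1.33, and 2 of them passed the test.

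**Figure D1:**
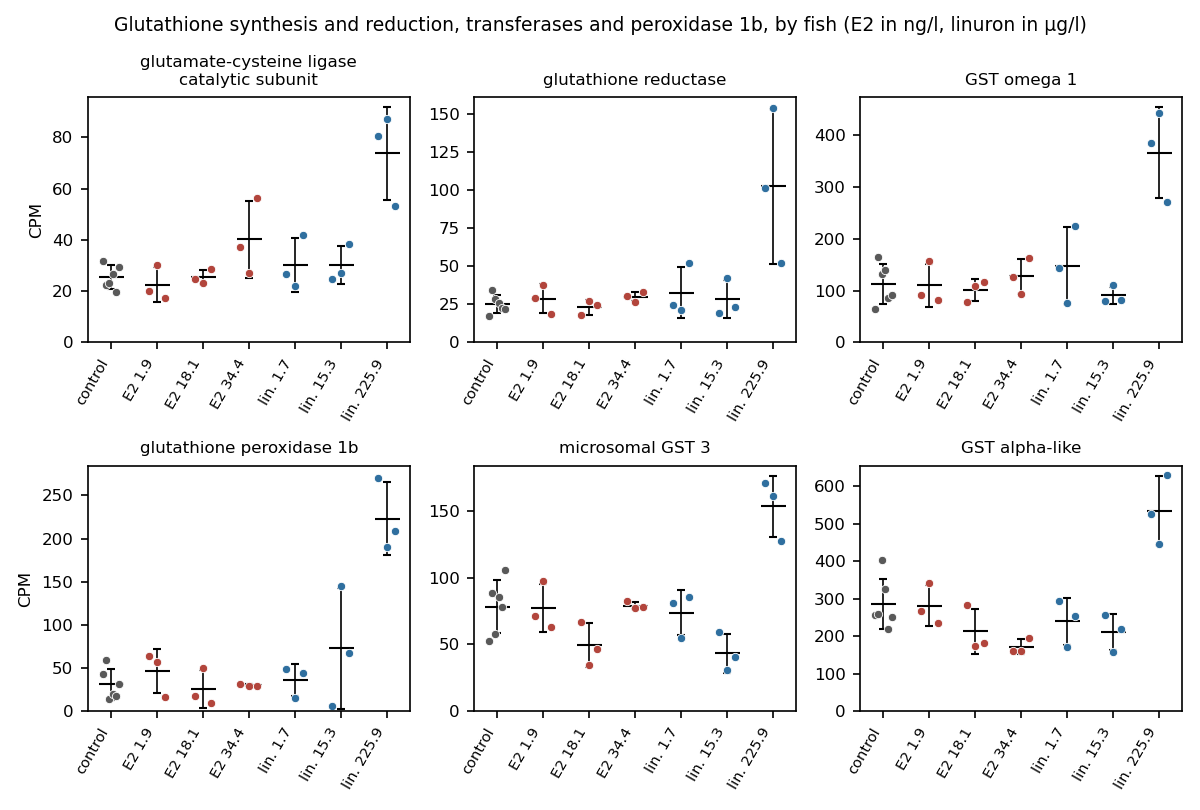
Levels in CPM (y axis, linear from 0) of 6 members in each fish of the 7 groups (x axis, control then E2 in ng/l and linuron in µg/l from low to high). Points are fish, horizontal marks are group means and bars are SD (n = 3, controls n = 6). For all 6 members the 3 fish at 225.9 µg linuron/l lie above the 6 controls, by the widest margin for glutathione peroxidase 1b with 190 to 271 CPM in exposed fish and 14.0 to 59.5 CPM in control fish.

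Among the GSTs, GST omega 1 (ENSDARG00000022183) rose. This class has thioltransferase and dehydroascorbate reductase activity. It had 385, 442 and 271 CPM in fish exposed to 225.9 µg linuron/l, against 64.4, 112 and 165 CPM as the lowest, median and highest of the control fish. The lowest exposed fish was above the highest control, and the log2 fold change was 1.66 (SE 0.29, adjusted p = 0.032), or 3.16-fold. All 10 GSTs tested had positive log2 fold changes, from 0.05 to 1.66 with a median of 0.63, while the median of all features was 0.00. Microsomal GST 1, a membrane enzyme that also reduces lipid peroxides, had 270, 182 and 225 CPM in exposed fish and 61.4 to 135 CPM in control fish. Its log2 fold change of 1.40 (SE 0.26) had an adjusted p of 0.054. Microsomal GST 3 had 172, 162 and 128 CPM in exposed fish and 52.7 to 106 CPM in control fish, with a log2 fold change of 0.93 (SE 0.25, adjusted p = 0.196). GST alpha-like, of the class that conjugates a wide range of electrophiles in liver, had 526, 448 and 631 CPM in exposed fish and 220 to 404 CPM in control fish, with a log2 fold change of 0.86 (SE 0.23, adjusted p = 0.201). These 3 GSTs did not pass the test, although their exposed fish lay above every control. Microsomal GST 1 was called in 9 of 20 other settings, among them edgeR's exact test (adjusted p = 0.0059). In the other 11 it was not called. GST pi 1, the GST with the most counts, had 1037, 1874 and 754 CPM in exposed fish and 476 to 946 CPM in control fish, and the groups overlapped. The 10 GSTs together reached 2973, 3672 and 2604 CPM in exposed fish and 1313 to 2000 CPM in control fish.

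Glutathione peroxidase 1b (ENSDARG00000006207), a cytosolic selenoenzyme that reduces hydrogen peroxide, showed the largest log2 fold change of the members. It had 271, 190 and 209 CPM in fish exposed to 225.9 µg linuron/l, against 14.0, 25.4 and 59.5 CPM as the lowest, median and highest of the control fish. The log2 fold change was 2.81 (SE 0.38, adjusted p = 0.0082), or 7.02-fold. The other 4 peroxidases had negative log2 fold changes and did not pass the test. Glutathione peroxidase 4a, of the type that reduces lipid peroxides in membranes, had 12.7, 16.6 and 13.9 CPM in exposed fish and 20.02 to 31.9 CPM in control fish, with a log2 fold change of -0.94 (SE 0.25, adjusted p = 0.196). Glutathione peroxidase 3, the secreted plasma form, had 457, 742 and 439 CPM in exposed fish and 353 to 976 CPM in control fish.

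None of the UGTs, the SULTs, the thioester hydrolases or UDP-glucose dehydrogenase passed the test at 225.9 µg linuron/l. The UGT1 family a, b member, the relative of the mammalian bilirubin-conjugating enzyme, had 137, 114 and 131 CPM in exposed fish and 27.5 to 80.9 CPM in control fish. Its log2 fold change was 1.21 (SE 0.30, adjusted p = 0.164), while 9 of the 12 UGTs had negative values and the median of the family was -0.26. UDP-glucose dehydrogenase had 22.8, 15.1 and 16.5 CPM in exposed fish and 16.2 to 22.1 CPM in control fish, with overlapping groups. SULTs of family 6B, family 3 and family 2 lay apart from the controls in opposite directions. SULT6B1 had 122, 93.0 and 84.0 CPM in exposed fish and 2.17 to 67.3 CPM in control fish, with a log2 fold change of 1.83 (SE 0.61, adjusted p = 0.362). SULT2 ST2, of the family that sulfates steroids, had 25.6, 30.3 and 25.97 CPM in exposed fish and 44.7 to 94.5 CPM in control fish, with a log2 fold change of -1.36 (SE 0.29, adjusted p = 0.093). SULT3 ST1 had 31.9, 61.2 and 43.3 CPM in exposed fish and 73.3 to 93.0 CPM in control fish, with a log2 fold change of -0.92 (SE 0.24, adjusted p = 0.184). Hydroxyacylglutathione hydrolase, the glyoxalase enzyme that releases glutathione from lactoylglutathione, had 60.7 to 78.2 CPM in exposed fish and 61.2 to 113 CPM in control fish.

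The 4 calls at 225.9 µg linuron/l depended on single fish. Without exposed fish 1 none was left, without exposed fish 2 only glutathione peroxidase 1b was, and without control fish 3 or 5 there were 2 and 1 members called. GST omega 1 was also not called without control fish 6 or exposed fish 3, nor was the ligase's catalytic subunit without control fish 2. The log2 fold changes kept their sign in all 20 other settings, between 2.65 and 3.11 for glutathione peroxidase 1b, 1.54 and 2.30 for glutathione reductase, 1.33 and 1.68 for the ligase's catalytic subunit and 1.47 and 1.84 for GST omega 1. Marker sums of bile duct and exocrine pancreas lay above all controls in this group, and those of the other cell lists overlapped the controls. No single marker passed the test against the controls. The 5 identifiers of the bile duct list summed to 643 to 1088 CPM in exposed fish and 426 to 587 CPM in control fish, and 4 of them had positive log2 fold changes. The 4 of exocrine pancreas summed to 108 to 161 CPM in exposed fish and 22.6 to 88.1 CPM in control fish, but only 1 of them was positive and the median log2 fold change was -3.15, so that the sum and most of its members went in opposite directions. All 4 had an unadjusted p under 0.05. The 3 erythrocyte identifiers summed to 455 to 1593 CPM in exposed fish and 167 to 695 CPM in control fish, and the 18 hepatocyte identifiers to 108000 to 149900 CPM and 125000 to 156900 CPM. Leukocyte sums were 306 to 569 CPM in exposed fish and 284 to 595 CPM in control fish. Endothelial sums were 41.4 to 62.8 CPM and 45.0 to 60.9 CPM, and stellate cell sums 57.4 to 61.6 CPM and 38.6 to 88.0 CPM. No list was at 0 in an exposed fish, and the part of these cells in the result was not tested.

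At the lower linuron concentrations no member passed the test. At 15.3 µg linuron/l, 0.0% of all features were called and 4.91% had an unadjusted p under 0.05, which 4 of 42 members also had. At 1.7 µg linuron/l, 0.0% of all features were called and 6.15% had an unadjusted p under 0.05, beside 8 of 42 members. edgeR's exact test called no member in either group, and DESeq2's Wald test called no member at 15.3 µg and 1 at 1.7 µg linuron/l. That member was glutathione peroxidase 3, with 337, 241 and 389 CPM in exposed fish and 353 to 976 CPM in control fish. Its log2 fold change was -1.09 (SE 0.32, adjusted p = 0.522 in edgeR). At 15.3 µg linuron/l, glutathione peroxidase 4b had 12.3, 76.9 and 45.3 CPM, against 9.57 to 21.0 CPM in control fish, with a log2 fold change of 1.72 (SE 0.43, adjusted p = 0.951). Fish 1 of that group lay within the controls, and without it the adjusted p was 0.043. Fish 2, which had the lowest level of the 24 fish for 13 members, had 7.08 CPM of GST theta 1b, 11.6 CPM of UGT1 family a, b and 0.674 CPM of UGT5 D1, where the lowest control fish had 19.4, 27.5 and 7.10 CPM. No member was called at 15.3 µg linuron/l without it either.

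Set against the mean of both lower linuron concentrations in a fit of all 24 fish, 5 of 41 members were higher at 225.9 µg linuron/l and none lower, beside 0.144% and 0.00982% of all features. Glutathione reductase differed by 1.75 on the log2 scale (SE 0.32, adjusted p = 0.017), with 24.8, 21.3 and 51.8 CPM at 1.7 µg, 19.4, 42.5 and 23.5 CPM at 15.3 µg and 101, 154 and 52.1 CPM at 225.9 µg linuron/l. GST omega 1 differed by 1.66 (SE 0.31, adjusted p = 0.020), with 76.5 to 224 CPM at 1.7 µg and 80.1 to 110 CPM at 15.3 µg linuron/l. The catalytic subunit of glutamate-cysteine ligase differed by 1.29 (SE 0.26, adjusted p = 0.032), with 22.1 to 42.1 CPM and 24.8 to 38.6 CPM at these concentrations. Both other members were GSTs that had missed the threshold against the controls. Microsomal GST 3 differed by 1.44 (SE 0.25, adjusted p = 0.013), with 54.4 to 85.4 CPM at 1.7 µg and 30.5 to 59.14 CPM at 15.3 µg linuron/l. GST alpha-like differed by 1.25 (SE 0.23, adjusted p = 0.020), with 171 to 295 CPM and 159 to 256 CPM. At 15.3 µg linuron/l the contigs of both GSTs all had negative log2 fold changes over the controls. They ran from -1.06 to -0.90 for microsomal GST 3 and from -0.63 to -0.39 for GST alpha-like. At 1.7 µg linuron/l they ran from -0.20 to 0.71 and from -0.47 to -0.11. These differences therefore do not measure a rise over the controls alone. Glutathione peroxidase 1b was variable at the lower concentrations, with 49.1, 14.9 and 44.2 CPM at 1.7 µg and 5.85, 146 and 66.9 CPM at 15.3 µg linuron/l, and its difference of 2.12 (SE 0.60) had an adjusted p of 0.273. No member was left without fish 1 at 225.9 µg or without fish 2 at 1.7 µg linuron/l. Without fish 2 at 225.9 µg or fish 1 at 1.7 µg linuron/l 2 members were called, and without fish 2 at 15.3 µg linuron/l 3 were.

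At 34.4 ng E2/l the members called by edgeR's quasi-likelihood test were conjugation enzymes, and all of them were lower. Of 42 members, 3 fell and none rose, where 0.745% of all features fell and 1.44% rose. At an unadjusted p under 0.05 there were 12 members, of which 10 were lower and 2 higher, which is 28.6% of the members, beside 13.4% of all features and 17.2% of annotated identifiers. All 3 exposed fish lay below all 6 controls for 8 members and above them for 3, beside 3.33% and 5.41% of all features. The 12 UGTs summed to 391, 422 and 406 CPM in the exposed fish and to 454 to 715 CPM in control fish, and the 7 SULTs to 464, 457 and 532 CPM and 550 to 667 CPM. A SULT sum below all controls was not particular to this group. It was 485 to 513 CPM at 1.9 ng E2/l and 372 to 498 CPM at 18.1 ng E2/l. At 1.7 µg linuron/l it was 276 to 544 CPM.

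UGT5 F1 (ENSDARG00000054835), of a UGT family found in fish, had 1.31, 1.52 and 0.833 CPM in the fish at 34.4 ng E2/l, against 2.37, 7.71 and 10.6 CPM as the lowest, median and highest of the control fish. These levels rest on 7 to 13 counts per exposed fish and 14 to 68 per control fish. The log2 fold change was -2.63 (SE 0.46, adjusted p = 0.0067), or 6.18-fold lower. UGT5 A1 (ENSDARG00000016479), the UGT with the most counts, had 99.7, 92.4 and 118 CPM in exposed fish, against 154, 193 and 225 CPM in control fish. The groups did not overlap, and the log2 fold change was -0.93 (SE 0.22, adjusted p = 0.037), or 1.90-fold lower. SULT2 ST2 (ENSDARG00000053331) had 29.2, 27.9 and 33.1 CPM in exposed fish, against 44.7, 66.4 and 94.5 CPM in control fish. All exposed fish were below all controls, with a log2 fold change of -1.23 (SE 0.28, adjusted p = 0.033), or 2.34-fold lower.

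**Figure D2:**
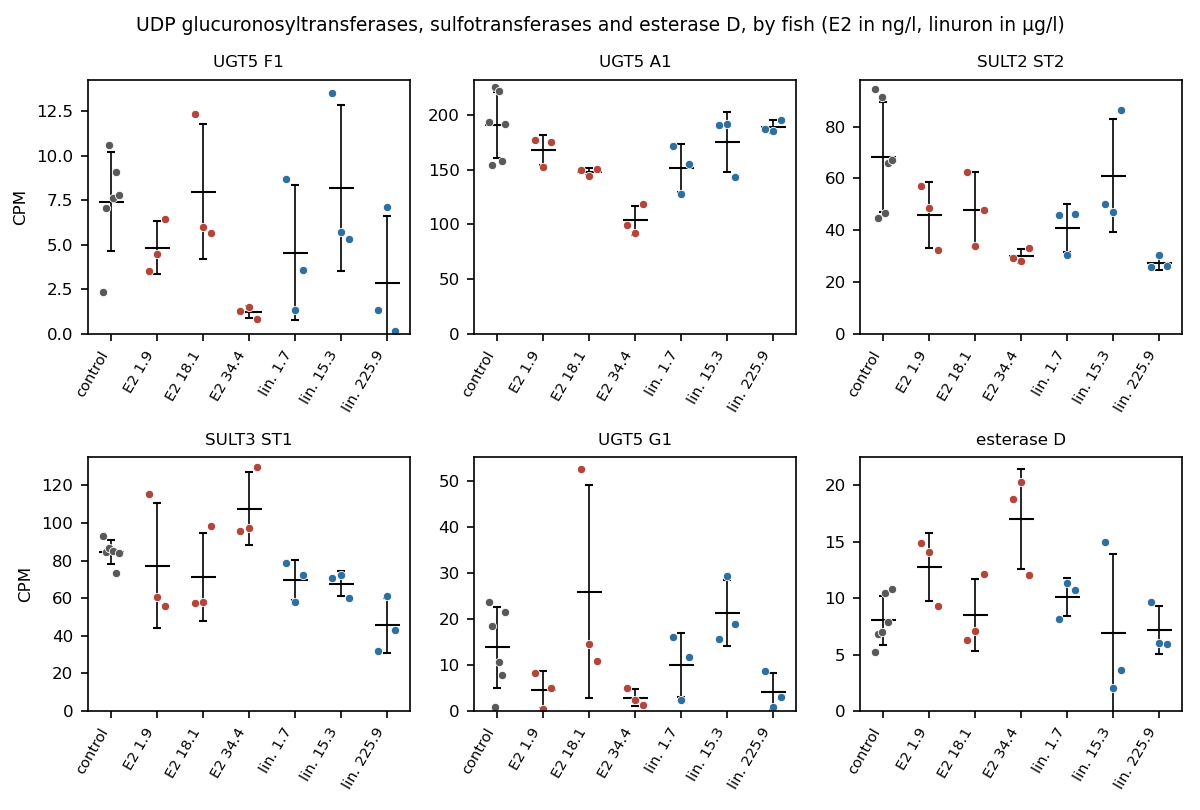
Levels in CPM (y axis, linear from 0) of 6 members in each fish of the 7 groups (x axis, control then E2 in ng/l and linuron in µg/l from low to high). Points are fish, horizontal marks are group means and bars are SD (n = 3, controls n = 6). For UGT5 F1, UGT5 A1 and SULT2 ST2 the 3 fish at 34.4 ng E2/l lie below the 6 controls, and for UGT5 A1 also below the fish of every other group, with 92.4 to 118 CPM at 34.4 ng E2/l and 154 to 225 CPM in control fish.

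The other UGTs and SULTs did not pass the test at 34.4 ng E2/l. UGT5 G1 had 4.99, 2.34 and 1.31 CPM in exposed fish and 0.964 to 23.7 CPM in control fish. Its log2 fold change was -2.31 (SE 0.69, adjusted p = 0.111), and 1 control fish was lower than all exposed fish. UGT5 G1 was called by edgeR's exact test (adjusted p = 0.035) and DESeq2's Wald test (adjusted p = 0.015). It was also called without control fish 3 (adjusted p = 0.015), and not in 17 other settings. UGT5 C1 had 20.9, 32.2 and 33.1 CPM in exposed fish and 41.2 to 68.7 CPM in control fish, with a log2 fold change of -0.85 (SE 0.25, adjusted p = 0.1003). The Wald test (adjusted p = 0.019) and the fit on annotated identifiers alone (adjusted p = 0.047) called it, and 18 other settings did not. SULT1 ST2, the SULT with the most counts and of the family that sulfates phenols and estrogens, had 185, 190 and 193 CPM in exposed fish and 219 to 330 CPM in control fish, with a log2 fold change of -0.67 (SE 0.21, adjusted p = 0.133). The Wald test called SULT1 ST2 (adjusted p = 0.018), and 18 other settings did not. SULT1 ST3 had 70.5, 91.0 and 55.8 CPM in exposed fish and 70.5 to 136 CPM in control fish. UGT2 A4 had 81.4, 113 and 77.9 CPM in exposed fish and 78.8 to 175 CPM in control fish, with overlapping groups. SULT3 ST1 had 95.7, 97.4 and 130 CPM in exposed fish and 73.3 to 93.0 CPM in control fish.

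No glutathione enzyme passed the test at 34.4 ng E2/l. GST alpha-like had 161, 160 and 194 CPM in exposed fish and 220 to 404 CPM in control fish, with a log2 fold change of -0.78 (SE 0.23, adjusted p = 0.111). Glutathione peroxidase 4a had 14.6, 18.6 and 18.8 CPM in exposed fish and 20.02 to 31.9 CPM in control fish, with a log2 fold change of -0.68 (SE 0.24, adjusted p = 0.188). All 5 peroxidases had negative log2 fold changes with a median of -0.10, and all 4 synthesis and reduction enzymes had positive ones with a median of 0.45. The catalytic subunit of glutamate-cysteine ligase had 37.0, 27.1 and 56.4 CPM in exposed fish and 19.6 to 31.9 CPM in control fish, with a log2 fold change of 0.61 (SE 0.25, adjusted p = 0.296). Esterase D, which hydrolyses formylglutathione, had 18.8, 20.3 and 12.02 CPM in exposed fish and 5.24 to 10.8 CPM in control fish. Its exposed fish lay above all controls, with a log2 fold change of 1.03 (SE 0.28, adjusted p = 0.075). GST theta 1a had 272, 263 and 294 CPM in exposed fish and 247 to 407 CPM in control fish.

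The directions at 34.4 ng E2/l depended on the scaling. With TMM factors 17 members were positive and 25 negative, and with library totals alone 23 were positive and 19 negative, since that scaling moved the median of all features by 0.195 on the log2 scale. The share of all calls that were higher was 65.9% with TMM factors and 80.1% with library totals. UGT5 F1 was called under both, while UGT5 A1 had a log2 fold change of -0.74 (adjusted p = 0.139) and SULT2 ST2 of -1.02 (adjusted p = 0.063) with library totals. Esterase D was called as higher with library totals (log2 fold change 1.22, adjusted p = 0.040). It was also called as higher with at least 5 CPM in 3 fish (adjusted p = 0.040) and by DESeq2's Wald test (adjusted p = 0.030), and not in 17 other settings. Without exposed fish 1 or exposed fish 3 no member was called, and without exposed fish 2 or control fish 6 only UGT5 F1 was. UGT5 A1 and SULT2 ST2 were also not called without control fish 3, nor was SULT2 ST2 without control fish 5. UGT5 A1 was not called by edgeR's exact test (adjusted p = 0.055) or on the contigs listed in all 6 tables (adjusted p = 0.053), and UGT5 F1 was not called in the fit of all 24 fish (adjusted p = 0.073). Marker sums of hepatocytes and endothelium lay below all controls here, and those of the other cell lists overlapped the controls. The 18 hepatocyte identifiers summed to 93040 to 105400 CPM in exposed fish and 126700 to 159600 CPM in control fish, the 6 endothelial identifiers to 39.6 to 43.3 CPM and 45.1 to 61.5 CPM, and the 10 leukocyte identifiers to 240 to 308 CPM and 288 to 612 CPM. No list was at 0 in an exposed fish, and the part of these cells in the result was not tested.

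At the lower E2 concentrations no member passed the test. At 18.1 ng E2/l, 0.0% of all features were called and 2.62% had an unadjusted p under 0.05, beside 3 of 41 members. At 1.9 ng E2/l, 0.0% of all features were called and 4.01% had an unadjusted p under 0.05, beside 3 of 42 members. edgeR's exact test and DESeq2's Wald test called no member in either group, and neither did the quasi-likelihood test without fish 1 at 1.9 ng E2/l. UGT5 A1 had 177, 153 and 175 CPM at 1.9 ng, 150, 144 and 150 CPM at 18.1 ng and 99.7, 92.4 and 118 CPM at 34.4 ng E2/l. SULT2 ST2 had 56.9, 48.5 and 32.2 CPM at 1.9 ng and 62.5, 33.8 and 47.6 CPM at 18.1 ng E2/l, within or below the range of the controls. UGT5 F1 had 3.54, 4.47 and 6.47 CPM at 1.9 ng and 12.4, 5.98 and 5.64 CPM at 18.1 ng E2/l, and most of these fish were within the range of the controls. When 34.4 ng E2/l was set against the mean of both lower concentrations, 1.16% of all features were called but none of the 41 members, although 11 of them had an unadjusted p under 0.05, beside 12.8% of all features. The differences were -2.33 for UGT5 F1 (SE 0.72, adjusted p = 0.125), -0.61 for UGT5 A1 (SE 0.19, adjusted p = 0.126) and 1.21 for the modifier subunit of glutamate-cysteine ligase (SE 0.38, adjusted p = 0.130). The share of all calls that were higher was 66.9% with TMM factors and 91.2% with library totals. DESeq2's Wald test called 2 members in this contrast, and a fit on annotated identifiers alone called 1, as did the fit without fish 2 at 1.9 ng E2/l.

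**Figure D3:**
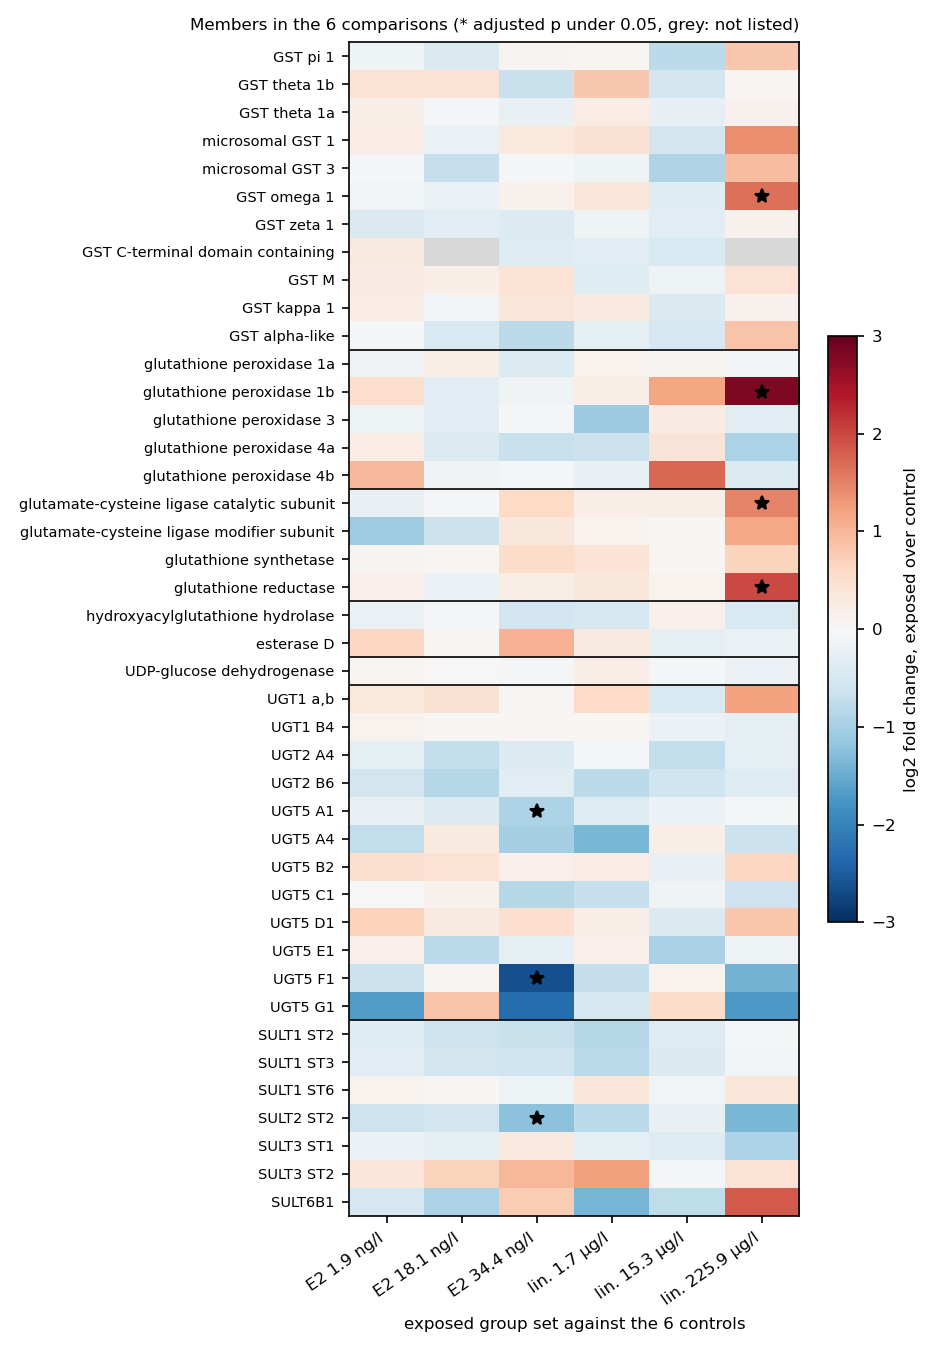
Log2 fold change of each exposed group over the 6 controls (colour, red higher and blue lower, limited to 3 in either direction) for the 42 members (rows, grouped by family) in the 6 comparisons (columns). Stars mark an adjusted p under 0.05 and grey marks a member not listed in that table. Stars stand for 3 members at 34.4 ng E2/l, all lower, and for 4 members at 225.9 µg linuron/l, all higher.

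The highest exposures were also set against each other, since a call in one and not in the other does not show a difference. The concentrations are not matched. Of 41 members, 4 were lower and 1 was higher at 34.4 ng E2/l than at 225.9 µg linuron/l, beside 0.33% and 0.72% of all features. GST alpha-like differed most clearly, with 161, 160 and 194 CPM at 34.4 ng E2/l, against 526, 448 and 631 CPM at 225.9 µg linuron/l, a log2 difference of -1.64 (SE 0.28, adjusted p = 0.0027). The control fish, at 220 to 404 CPM, lay between both groups with no overlap. Glutathione reductase differed by -1.77 (SE 0.39, adjusted p = 0.023), with 30.3, 26.7 and 32.7 CPM at 34.4 ng E2/l, against 101, 154 and 52.1 CPM at 225.9 µg linuron/l. GST omega 1 differed by -1.52 (SE 0.38, adjusted p = 0.046), with 127, 93.0 and 162 CPM at 34.4 ng E2/l, against 385, 442 and 271 CPM at 225.9 µg linuron/l. UGT5 A1 differed by -0.87 (SE 0.21, adjusted p = 0.044), with 99.7, 92.4 and 118 CPM at 34.4 ng E2/l, against 187, 185 and 196 CPM at 225.9 µg linuron/l. SULT3 ST1 (ENSDARG00000009885) was the member that was higher, with 95.7, 97.4 and 130 CPM at 34.4 ng E2/l, against 31.9, 61.2 and 43.3 CPM at 225.9 µg linuron/l, a log2 difference of 1.24 (SE 0.29, adjusted p = 0.032). The controls lay between both groups for this member too, at 73.3 to 93.0 CPM. Glutathione peroxidase 1b had 31.1, 29.2 and 28.8 CPM at 34.4 ng E2/l, against 271, 190 and 209 CPM at 225.9 µg linuron/l, and its difference of -2.91 (SE 0.77) had an adjusted p of 0.070. SULT2 ST2 had 29.2, 27.9 and 33.1 CPM at 34.4 ng E2/l and 25.6, 30.3 and 25.97 CPM at 225.9 µg linuron/l, and its difference of 0.14 (SE 0.32) did not pass the test. For UGT5 F1 the difference of -1.21 (SE 0.79) had an adjusted p of 0.65. Its contigs were negative at 225.9 µg linuron/l too, at -2.74 and -0.74, and not called. For the catalytic subunit of glutamate-cysteine ligase the difference of -0.88 (SE 0.31) had an adjusted p of 0.213. Only 1 member was called without any one of the 3 fish at 34.4 ng E2/l or without fish 1 at 225.9 µg linuron/l, and 2 were without fish 2 or 3 at 225.9 µg linuron/l. Without fish 1 or 3 at 1.9 ng E2/l, fish 2 or 3 at 18.1 ng E2/l, fish 1 at 1.7 µg linuron/l or control fish 6, 3 members were called. These fish enter the same fit. GST alpha-like was called in each of the 30 other settings that could test it. Its contigs lie in 1 component with transmembrane protein 14A, so it could not be tested without the contigs of shared components. Without the contigs of shared components UGT5 A1 was not called (adjusted p = 0.055). With library totals 3 members were called, and the share of all calls that were higher was 85.1%, where it was 68.5% with TMM factors. Of the cell markers, krt18 of the bile duct list was called, lower at 34.4 ng E2/l (log2 difference -1.38, SE 0.33, adjusted p = 0.038). Of the 5 bile duct identifiers, 0 had a positive difference, but so had 0 of 10 leukocyte, 0 of 6 stellate cell and 0 of 3 erythrocyte identifiers. In the other lists, 1 of 6 endothelial, 3 of 18 hepatocyte and 3 of 4 exocrine pancreas identifiers were positive. The part of these cells in the result was not tested.

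Of the 42 members, 29 were sums of several contigs. A further limit is that 12 had a contig in an assembly component that also carried another identifier, so that the division of reads between these identifiers is uncertain. The UGT5 A1, B2, C1 and D1 group, SULT1 ST2 and ST3, and SULT3 ST1 and ST2 shared components within their family. GST theta 1a, microsomal GST 3, GST alpha-like and glutathione peroxidase 4a shared theirs with genes of other families. Contig values below are CPM scaled within each comparison. Tested one by one, 8 member contigs were higher at 225.9 µg linuron/l and 4 were lower at 34.4 ng E2/l, beside 0.123% and 0.791% of all contigs. Both contigs of glutathione reductase were called, with log2 fold changes of 1.88 (SE 0.31) and 2.09 (SE 0.33). Both contigs of GST omega 1 were positive, at 1.59 and 1.73, and 1 was called. Microsomal GST 3 was made of 2 contigs that differed. One had 52.8 ± 18.9 CPM at 225.9 µg linuron/l (SD, n = 3) and 5.13 ± 1.57 CPM in control fish (SD, n = 6), with a log2 fold change of 3.35 (SE 0.31, adjusted p = 0.00012). The other, more abundant one shared its component with peptidoglycan recognition protein 2 and had a log2 fold change of 0.41 (SE 0.26, adjusted p = 0.733). GST alpha-like also held contigs that went apart. At 225.9 µg linuron/l 2 of them had log2 fold changes of 1.42 and 1.47, with adjusted p of 0.076 and 0.079, while the third had -0.46. At 34.4 ng E2/l the same contigs had -1.16, -1.08 and -0.46. Of the 5 contigs of microsomal GST 1, all were positive and 2 were called, at 1.56 (adjusted p = 0.044) and 1.57 (adjusted p = 0.040).

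**Figure D4:**
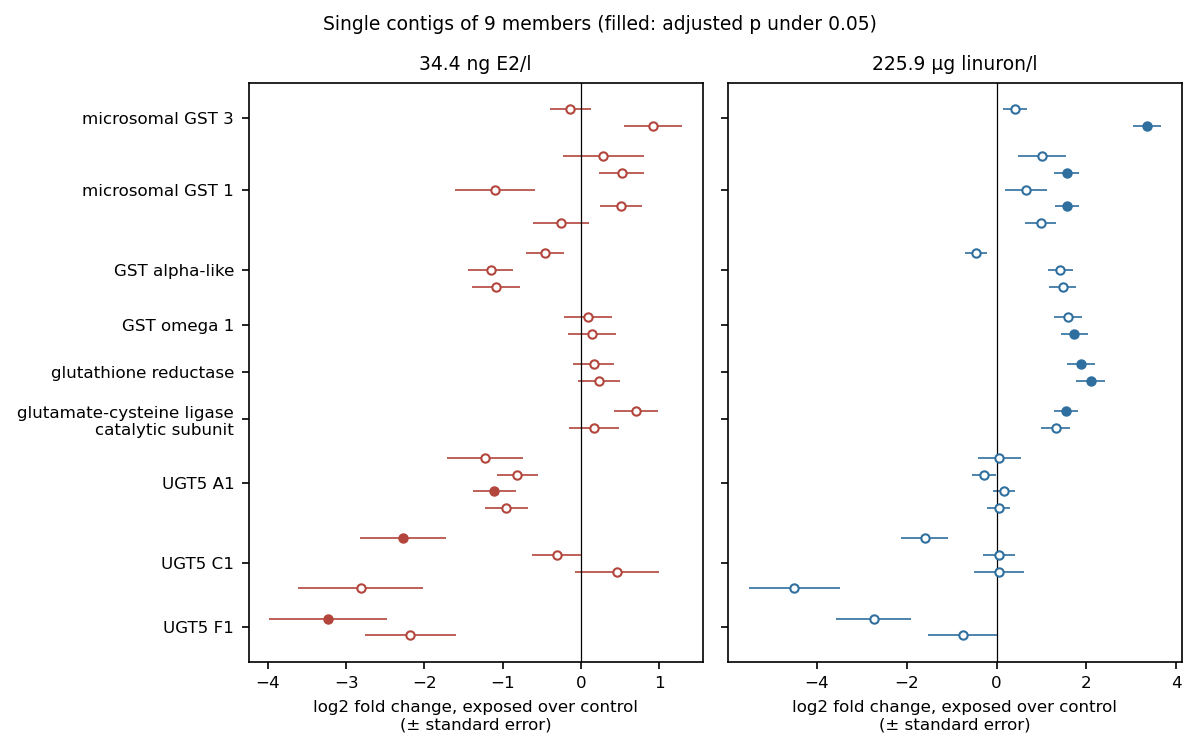
Log2 fold change over the 6 controls (x axis) of single contigs of 9 members (rows) at 34.4 ng E2/l (left) and 225.9 µg linuron/l (right). Points are contigs, bars are standard errors and filled points have an adjusted p under 0.05. The contig of microsomal GST 3 at 3.35 and the contigs of UGT5 C1, which run from -2.81 to 0.46 at 34.4 ng E2/l, show how unlike the contigs of 1 member can be.

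Among the UGTs at 34.4 ng E2/l, all 4 contigs of UGT5 A1 were negative, from -0.81 to -1.23, and 1 was called at -1.11 (adjusted p = 0.047). Both contigs of UGT5 F1 were negative, at -3.23 (adjusted p = 0.035) and -2.18 (adjusted p = 0.073). The 4 contigs of UGT5 C1 lay in 4 components and had log2 fold changes of -2.81, -2.28, -0.31 and 0.46, of which -2.28 was called (adjusted p = 0.044). Its most abundant contig, in a component shared with UGT5 A1, was the one at -0.31, with 22.0 ± 5.59 CPM in exposed fish (SD, n = 3) and 27.2 ± 9.15 CPM in control fish (SD, n = 6). Without the contigs of shared components, 6 members were called at 225.9 µg linuron/l, which were the 4 above with both microsomal GSTs, and the same 3 at 34.4 ng E2/l.

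Genes that supply, recycle or work beside these enzymes were counted in 7 lists. With the E2 targets, 109 of 171 symbols were matched with the annotations. Levels of these genes are CPM scaled within each comparison. At 225.9 µg linuron/l, 1 gene of these lists passed the test. It was cyp1a, the oxidase induced through the aryl hydrocarbon receptor, with 5091 ± 1162 CPM in exposed fish (SD, n = 3) and 11.9 ± 6.48 CPM in control fish (SD, n = 6), a log2 fold change of 8.74 (SE 0.48, adjusted p = 5.7e-07). None of the 10 identifiers of glutathione breakdown and recycling, the 19 of cysteine supply, the 11 of cofactor supply for conjugation, the 8 of efflux pumps, the 21 of the thioredoxin and peroxiredoxin system or the 8 of other conjugating enzymes was called there, and 2, 5, 0, 1, 5 and 2 of them had an unadjusted p under 0.05, beside 8.53% of all features. The other 14 of 15 identifiers of the list of Nrf2, the aryl hydrocarbon receptor and the pregnane X receptor with their targets did not pass the test. Of the 15 with cyp1a, 5 had an unadjusted p under 0.05. There, 11 log2 fold changes were positive, with a median of 0.39.

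At 34.4 ng E2/l the genes around cysteine, the amino acid that limits glutathione synthesis, changed in both directions. Of 21 identifiers, 6 fell and 3 rose, beside 0.745% and 1.44% of all features. Those that fell were cbs, which condenses homocysteine with serine, with a log2 fold change of -1.86 (SE 0.45), bhmt, which remethylates homocysteine, at -2.29 (SE 0.52), gnmt, which consumes S-adenosylmethionine, at -1.37 (SE 0.26), slc3a2a, the heavy chain of several amino acid transporters, at -3.38 (SE 0.53), and cdo1, which oxidises cysteine, at -1.76 and -1.66 for its 2 identifiers. Those that rose were the neutral amino acid transporter slc1a4 at 2.02 (SE 0.47), mat2aa, which makes S-adenosylmethionine, at 2.28 (SE 0.45), and an identifier whose zebrafish protein is uncharacterized and whose mouse and human hits in the files are member 11 of solute carrier family 7 (slc7a11), the cystine transporter. It had 37.8 ± 3.10 CPM in exposed fish (SD, n = 3) and 0.430 ± 0.579 CPM in control fish (SD, n = 6), with 302 to 352 counts in exposed fish and 0 to 10 in control fish. At these control levels slc7a11 passed the filter of about 1 CPM in 3 fish only with the exposed fish. Its rise is therefore partly fixed by its being listed. The adjusted p of these 9 ran from 7.8e-06 to 0.045. The exposed fish overlapped the controls for slc1a4, mat2aa and cbs. The median log2 fold change of the 21 identifiers was -0.29, while that of all features was 0.01. Only 19 of the 21 identifiers could be tested in the contrasts, which use contigs listed in all 6 tables. The identifiers left out may include some of the 9 above. None of the 19 identifiers tested was called against the lower E2 concentrations or against 225.9 µg linuron/l. There, 6 and 4 of them had an unadjusted p under 0.05, beside 12.8% and 11.1% of all features. The supply of cofactors held 1 call among 12 identifiers and the export of conjugates 1 among 9, both lower, beside 0.745% of all features. None of the 10 identifiers of glutathione breakdown and recycling, the 15 of the Nrf2 and receptor list or the 8 of other conjugating enzymes was called. Of these, 1, 2 and 3 had an unadjusted p under 0.05, beside 13.4% of all features. ugp2a, which makes UDP-glucose, had 1.098 ± 0.486 CPM in exposed fish (SD, n = 3) and 4.65 ± 2.04 CPM in control fish (SD, n = 6), a log2 fold change of -2.07 (SE 0.49, adjusted p = 0.038). Its levels rest on 6 to 14 counts per exposed fish and 13 to 54 per control fish. abcg2b, of the family of pumps that export sulfate conjugates in mammals, had 2.47 ± 0.363 CPM and 9.71 ± 2.30 CPM, a log2 fold change of -1.97 (SE 0.32, adjusted p = 0.0033). Of 22 identifiers of the thioredoxin and peroxiredoxin system 1 was called, beside 1.44% of all features that rose. This was the peroxiredoxin prdx4, which rose, with 154 ± 25.6 CPM in exposed fish (SD, n = 3) and 74.1 ± 8.92 CPM in control fish (SD, n = 6). Its log2 fold change was 1.06 (SE 0.20, adjusted p = 0.0099). Between the highest exposures, nfe2l2, which encodes Nrf2, was lower at 34.4 ng E2/l than at 225.9 µg linuron/l by 0.88 on the log2 scale (log2 difference -0.88, SE 0.20, adjusted p = 0.026), prdx3 and prdx4 were higher by 0.92 and 1.42, and abcg2b and cyp1a had differences of -2.23 and -9.52.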

How the data were processed

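Liver RNA of 24 brown trout was sequenced as paired-end Illumina TruSeq libraries. The authors built one de novo Trinity assembly from the combined reads and named its contigs by Blastx against Ensembl proteins (zebrafish first, then human and mouse, then other fish). Reads were placed on the contigs by Bowtie2 2.1.0, each at one best position, and SAMtools 0.1.18 gave the totals. The deposited values used here are the authors' raw counts per contig and fish, in 6 tables of 3 exposed and 6 control fish, with no normalization. Placing each read once can shift reads between near-identical contigs. No use of strand is given in the sources used here, so reads from a gene and its antisense partner cannot be told apart. Per the file headers, the tables also hold the authors' log2 fold changes, log2 CPM, p-values and FDR values, which give control relative to exposed fish and were not used. Every listed contig had already passed a filter of about 1 CPM in 3 fish.

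Counts were summed per Ensembl identifier of the first annotation hit, and unannotated contigs were kept one by one. Each exposed group was tested against the 6 controls with edgeR 4.0.16 under R 4.3.3 (TMM factors, at least 1 count in at least 3 fish, which removed no feature, quasi-likelihood test, Benjamini-Hochberg adjustment over all features, threshold 0.05). The 3 contrasts between exposed groups came from 1 fit of all 24 fish on contigs listed in all 6 tables, so that 41 members could be tested. GST C-terminal domain containing was not listed at 18.1 ng E2/l and 225.9 µg linuron/l. The fitting was tested on simulated data. Replicates are separate fish, and no 2 libraries of the same group agreed within sampling noise. Libraries of different groups were not compared in this way. The depth was 3894392 to 10736246 counts per fish, at which members near 1 CPM have few counts and imprecise fold changes.

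The members and lists were chosen with earlier results of these data known. Members named are those called in any fit, the 2 with the most counts in each family, the one with the lowest p in each family at the highest exposures, and those with an unadjusted p under 0.01. The levels of GST theta 1b and UGT5 D1 in 1 fish were chosen after their values were seen. Alternatives used DESeq2 1.42.0 (Wald test, size factors), edgeR's exact test, library totals, other filters, other features, a replicate block and the omission of each fish. Symbols of the neighbouring lists and cell markers were matched through the descriptions in the files. Tables were made with Python 3.11.15, pandas 2.3.3 and numpy 2.4.6. Spike-in controls and sequences were not used here.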

Additional observations from a re-analysis of the deposited data

Results flagged for a closer look

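For 5 members the effect of 34.4 ng E2/l differed from that of 225.9 µg linuron/l by the test of the difference itself (edgeR's quasi-likelihood test, 24 fish in 1 fit), and the size of 3 of these differences was over 1.5 on the log2 scale. The log2 difference was -1.77 for glutathione reductase, -1.64 for GST alpha-like, -1.52 for GST omega 1, -0.87 for UGT5 A1 and 1.24 for SULT3 ST1, with adjusted p between 0.0027 and 0.046. For GST alpha-like and SULT3 ST1 the exposed groups lay on opposite sides of the 6 controls without overlap.

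In the control group, 1 fish stood far from the others for UGT5 C1, with 68.7 CPM, where the next control fish had 51.4 CPM and the lowest 41.2 CPM. Of 27 members looked at in this way it was the only one, and chance gives about 1 in 20.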

How the results depend on the processing

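At 34.4 ng E2/l the 3 members called became 8 with DESeq2's Wald test and 5 on annotated identifiers alone, and 0 to 3 when single fish were left out. At 225.9 µg linuron/l the 4 members became 12 with the Wald test and 0 to 6 without single fish. At 1.7 µg linuron/l the Wald test called 1 member, and at 15.3 µg linuron/l 0 to 1 were called without single fish. Between the highest exposures the 5 members became 3 with library totals and 1 to 6 without single fish. For 34.4 ng E2/l against the lower concentrations, the 0 members became 2 with the Wald test, 1 on annotated identifiers and 0 to 1 without single fish. For 225.9 µg linuron/l against the lower concentrations, the 5 members became 3 with library totals and 0 to 6 without single fish. Fits without single fish test fewer samples, and the cause of the other changes was not tested. With the replicate number of the labels as a block, 0 members were called at 34.4 ng E2/l, 1 at 225.9 µg linuron/l, which was SULT6B1 and none of the 4, 1 between the highest exposures and 3 for 225.9 µg linuron/l against the lower concentrations. The numbers 4, 5 and 6 occur only among control fish, and the block fits each of these exactly. With the block, the comparisons with the controls therefore rested on fish 1 to 3 of each group. The numbers showed no clear pairing of the fish. Same-numbered fish correlated above 0.1 in 4 of 18 pairs, and 2 exposed fish correlated best with the control of their own number. Whether fish of 1 number shared a tank or batch was not tested. Over all features, the Wald test called 1673 at 34.4 ng E2/l, where the quasi-likelihood test called 785, and 522 at 225.9 µg linuron/l, where it called 68. It called 151 at 1.7 µg linuron/l, 11 at 15.3 µg linuron/l, 11 in the group of 1.9 ng E2/l and 3 in that of 18.1 ng E2/l, where the quasi-likelihood test called 0. edgeR's exact test called 1292, 311, 54, 17, 1 and 3 features in the same order of groups. At 34.4 ng E2/l, 383 features were called on annotated identifiers alone, 1338 with each contig on its own and 483 in the fit of all 24 fish. At 225.9 µg linuron/l, 119 were called with at least 5 CPM in 3 fish, 106 in the fit of all 24 fish and 22 with the block. Between the highest exposures, 321 features became 802 with the Wald test and 184 with the block. For 34.4 ng E2/l against lower concentrations, 354 became 834 with library totals and 963 with the Wald test, and for 225.9 µg linuron/l, 47 became 31, 153 and, with the block, 30. The block called 3 features at 18.1 ng E2/l, and the fit of all 24 fish 1 and 8 at 1.7 and 15.3 µg linuron/l. The direction of UDP-glucose dehydrogenase at 1.7 µg linuron/l, a log2 fold change of 0.21, turned to -0.12 without exposed fish 3, in a range of -0.12 to 0.43 over the fits without single fish. The log2 fold changes of the 3 and 4 members called, and the differences of those called in the contrasts, kept their direction in the alternatives that were run.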

Other observations

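The members in these paragraphs were chosen after their values were seen. Some members had few counts. GST M had 1.67 to 2.61 CPM at 34.4 ng E2/l, 1.42 to 3.68 CPM at 225.9 µg linuron/l and 0 to 2.99 CPM in control fish. GST C-terminal domain containing had 4 to 8 counts per fish at 34.4 ng E2/l and 0 to 17 counts in control fish.

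Some members varied widely between fish of 1 group. SULT6B1 had 49.97, 6.21 and 87.7 CPM at 34.4 ng E2/l, 122, 93.0 and 84.0 CPM at 225.9 µg linuron/l and 2.17 to 67.3 CPM in control fish. UGT2 B6 had 15.4, 4.22 and 30.6 CPM at 34.4 ng E2/l and 3.89 to 39.0 CPM in control fish. UGT5 G1 had 52.6, 14.5 and 10.8 CPM at 18.1 ng E2/l and 0.964 to 23.7 CPM in control fish. At 15.3 µg linuron/l all 11 GSTs had negative log2 fold changes, with a median of -0.45, and all 5 glutathione peroxidases had positive ones, with a median of 0.39, while no member of either family passed edgeR's test there. Of all features, 47.99% were positive, with a median of -0.03. The 10 GSTs listed in all tables summed to 1615, 964 and 1177 CPM, against 1313 to 2000 CPM in control fish. The peroxidases summed to 516, 1510 and 955 CPM, against 436 to 1084 CPM. Fish 1 lay within the controls for both sums.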
